A study of Rattus norvegicus with 96 samples.

Results

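The protein kinase C genes measured here are Prkca, Prkcb, Prkcd, Prkce, Prkch, Prkcq and Prkcz, 7 of the 14217 genes that the array measured with a probe set of a single gene symbol. They were chosen as the probe sets annotated to these symbols alone, which gave 10 probe sets: 3 for Prkcb, 2 for Prkch and 1 for each of the other genes. No probe set was shared with another symbol. RNA came from the central nucleus of the amygdala of rats of 10 lines, which form 5 pairs selectively bred for high or low alcohol preference, and the labels name 1 animal for each of the 96 arrays. The preferring and the non-preferring line of each pair were HAD1 (9 arrays) with LAD1 (10), HAD2 (10) with LAD2 (10), P (10) with NP (10), AA (10) with ANA (10), and sP (8) with sNP (9). The labels name no treatment, and age, sex and drinking history were not used here. HAD1 with LAD1 and HAD2 with LAD2 are known as replicate selections from a common stock, so the 5 pairs are not fully separate histories. The question posed by the design is whether a gene's level differs within a pair, and whether such a difference recurs over pairs. Animals of a line share descent, so p-values over animals measure the spread between animals, whereas selection itself was repeated by pair. Levels are log2 values from RMA, which the authors used to scale the arrays to one another and to merge the probes of a probe set. A level of one probe set cannot be set against that of another, so the isoforms are not ranked against each other.

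Protein kinase C enzymes phosphorylate serine and threonine residues after receptors coupled to Gq activate phospholipase C, which cleaves a membrane lipid into diacylglycerol and inositol trisphosphate. The conventional isoforms (alpha, encoded by Prkca, and beta, encoded by Prkcb) need diacylglycerol and calcium, a further group (delta, epsilon, eta and theta, encoded by Prkcd, Prkce, Prkch and Prkcq) needs diacylglycerol but not calcium, and the atypical zeta isoform (Prkcz) needs neither. In rodents Prkcd labels a class of GABA neurons in the lateral division of the central amygdala that limits fear output, and mice lacking Prkce drink less alcohol than their littermates. Prkcq is best known as the isoform that acts behind the T cell receptor.

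Marker levels were set against the median level of all probe sets, which does not tell the central amygdala from other tissue. Of 14 measured markers of central amygdala neurons, 13 lay above that median, Calcrl being the exception. So did 12 of 12 striatal and 12 of 12 oligodendrocyte markers. The same held for 8 of 9 astrocyte, 8 of 11 vascular, 9 of 13 microglia and 5 of 8 thalamic markers. Of the 9 markers of basolateral and cortical excitatory neurons, 4 lay above that median, and of 8 T cell markers 1 did, with Cd3e, Cd3d, Cd3g, Cd2, Cd4, Cd8a and Zap70 below it. Array medians lay between 7.77 and 8.02 log2 units. The log2 ratio of 3' to 5' GAPDH probe sets is often read as a sign of RNA integrity. It was 3.33 to 4.09 on average in the HAD and LAD lines and 0.20 to 0.43 in the other 6 lines. Whether labelling, with a protocol read for 1 array, plays a part in this gap was not tested. In 4 pairs some arrays resembled the other line of their pair in overall profile: 14 of 96 arrays lay on the other line's side of a score built from the other arrays on both odd and even chromosomes (HAD1 28, LAD1 37, P 1, P 9, NP 1, NP 9, AA 15, AA 17, AA 19, ANA 16, sP 2, sP 9, sNP 8 and sNP 9). They are called doubted arrays, and values are also given without them. The arrays sP 2 and sNP 2 were nearly the same, with values that differed by an SD of 0.09 log2 units, and the array titled LAD1 36 is called HAD1 in its source name.

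Prkcq had the widest span of line means (2.04) and Prkcz one of the narrowest (0.45). The promoters of these 2 isoforms are shown because, among the matched ones, only their windows did not lie wholly inside the annotated gene. They are the 250 bases before the gene start in RefSeq on build GRCr8, in the direction of transcription, from chr17:72288509-72288758 for Prkcq and chr5:171212675-171212924 for Prkcz, both on the minus strand; 20 of the Prkcz bases lie inside the annotated gene span. Capitals mark matches on either strand to the searched motifs. These were the GC box, GGGCGG, and the box named after its own letters, CCAAT. The others were the TATA box, TATAAA, the E-box, CACGTG, the cAMP response element, TGACGTCA, and a SOX motif, AACAAAG.
Prkcq: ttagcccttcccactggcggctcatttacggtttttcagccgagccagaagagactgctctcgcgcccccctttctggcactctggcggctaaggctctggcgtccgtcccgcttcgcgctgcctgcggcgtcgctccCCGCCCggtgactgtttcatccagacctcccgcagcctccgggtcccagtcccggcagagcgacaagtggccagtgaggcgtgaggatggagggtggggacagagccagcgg
Prkcz: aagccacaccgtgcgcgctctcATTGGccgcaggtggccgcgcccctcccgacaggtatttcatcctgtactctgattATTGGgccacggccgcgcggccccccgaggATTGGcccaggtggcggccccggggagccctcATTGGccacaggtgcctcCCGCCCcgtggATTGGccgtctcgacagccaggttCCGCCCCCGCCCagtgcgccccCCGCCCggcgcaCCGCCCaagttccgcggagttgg
Prkcq held 1 GC box and no match to the other motifs. Prkcz held 5 GC boxes, of which a pair abut, and 5 CCAAT boxes. Of all 33469 promoters of this length, 30.5% held a GC box, 34% a CCAAT box, 12.9% a TATA box, 5.6% an E-box, 1.6% a cAMP response element and 5.1% a SOX motif. The share of G and C bases was 66.8% in Prkcq and 72.0% in Prkcz, against a median of 51.2% over all promoters. RefSeq promoters were matched for 5 of the 7 genes; in Prkca, Prkcd and Prkce the window lies inside the annotated gene and is not printed. A match is a description of the letters only.

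No protein kinase C probe set passed the test between the lines of any pair. The test was limma within each pair, with adjustment after Benjamini and Hochberg over all 31042 probe sets and a threshold of 0.05. It called 0 of 10 protein kinase C probe sets in each of the 5 pairs. Over all probe sets it called 0.963% in HAD1 against LAD1, 4.09% in HAD2 against LAD2, and 0% in each of P against NP, AA against ANA and sP against sNP, so that few calls among 10 would be seen at the shares of the whole array. At an unadjusted p under 0.05, 1 of 10 protein kinase C probe sets passed in HAD1 against LAD1 and 0 of 10 in each other pair, beside 11%, 16.4%, 4.91%, 4.92% and 4.32% of all probe sets in the order of pairs given in the opening. The 95% interval of the difference included 0 in 49 of the 50 comparisons and lay within 0.5 log2 units of 0 in 45 of them. The bound farthest from 0 was 0.66, a 1.585-fold difference, so larger differences lie outside all 50 intervals. The ranges of both lines overlapped in 50 of 50 comparisons, and 23 of the 50 differences were positive.

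**Figure D1:**
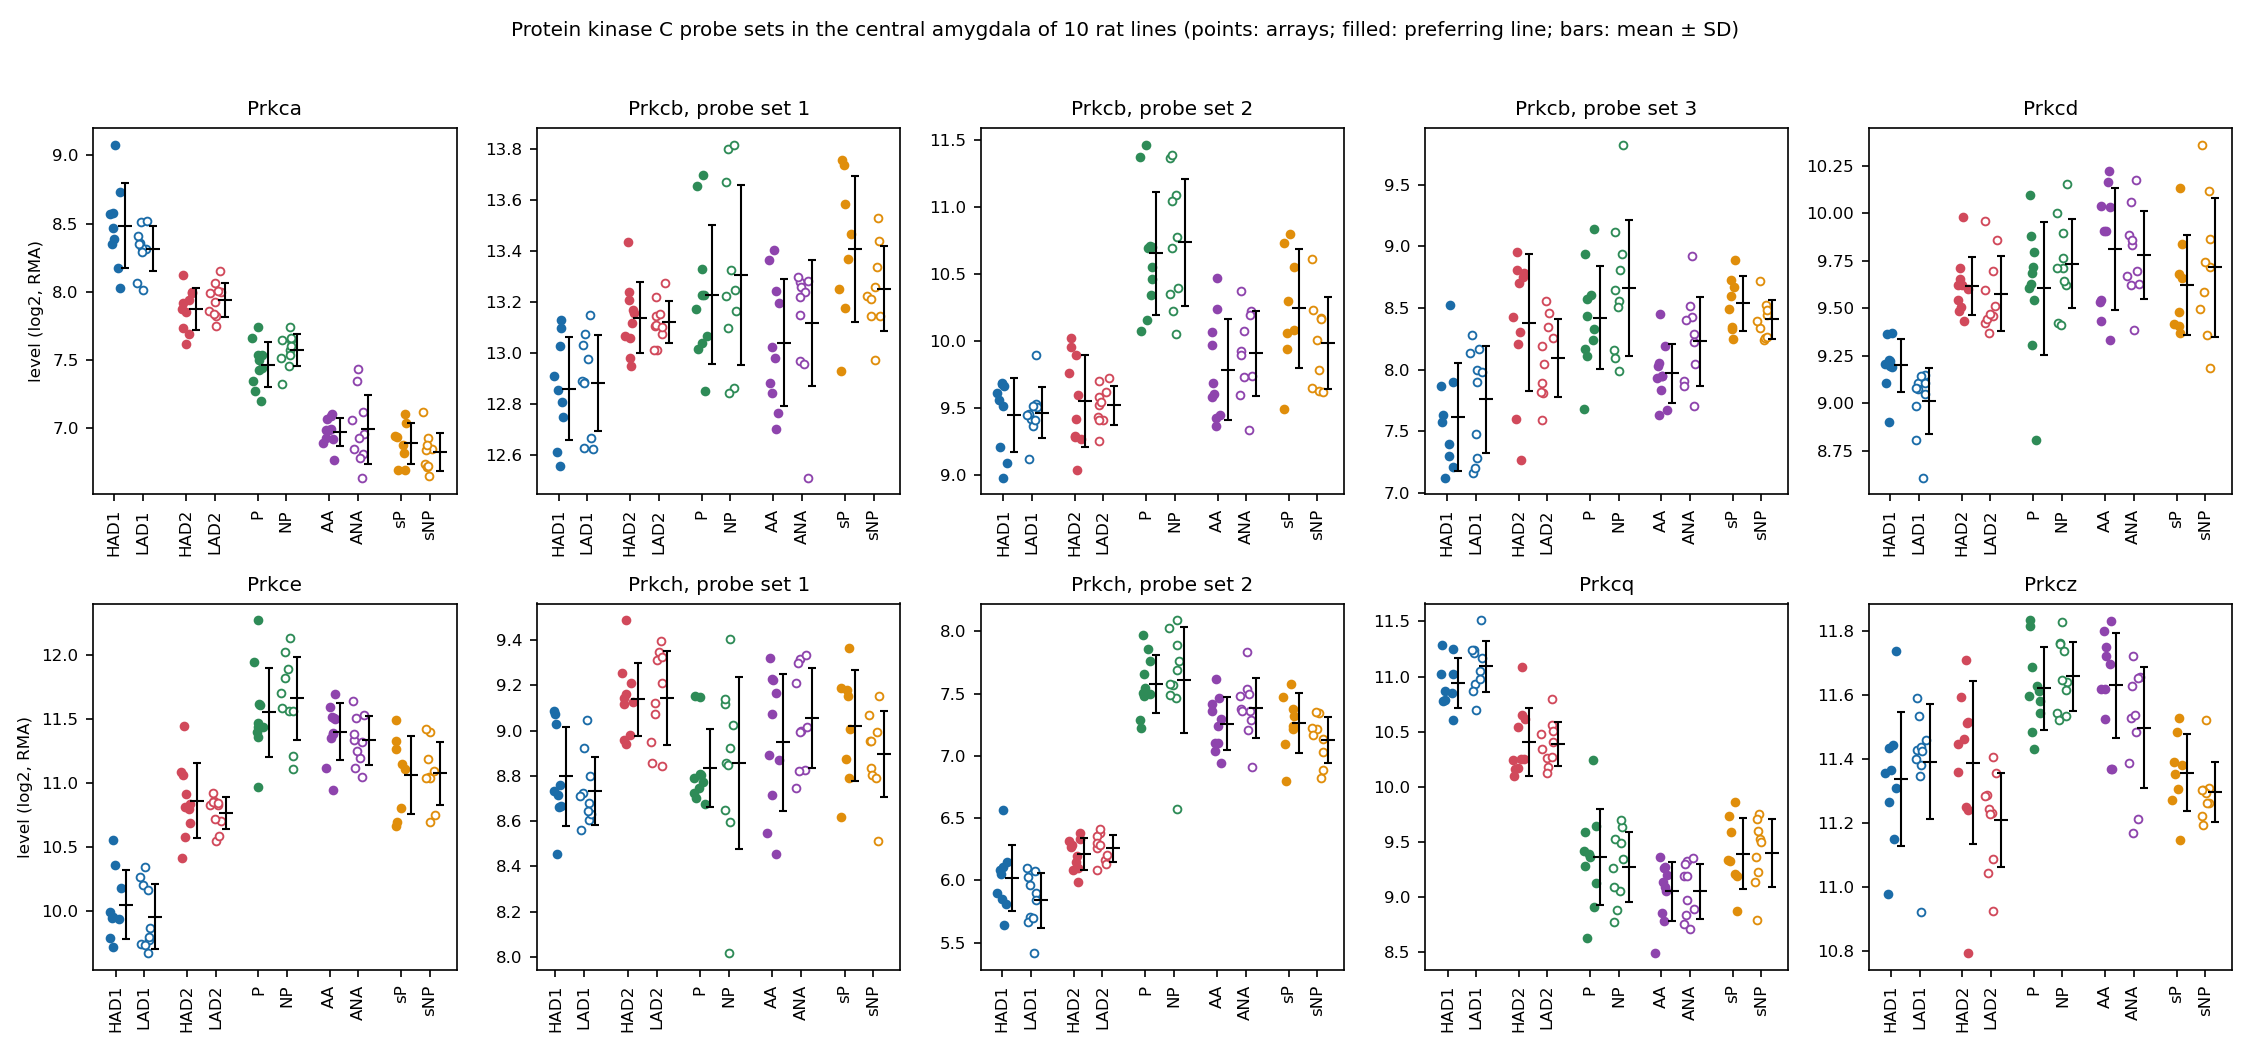
Level of each protein kinase C probe set (log2 RMA value, vertical axis) on every array of the 10 lines (horizontal axis, paired with the preferring line on the left). Filled points are arrays of preferring lines and open points those of non-preferring lines; bars give mean ± SD. Both lines of a pair overlap in every panel, while Prkcq, Prkca, Prkce and the second Prkch probe set are set apart between pairs, with spans of line means of 2.04, 1.66, 1.70 and 1.77.

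**Figure D2:**
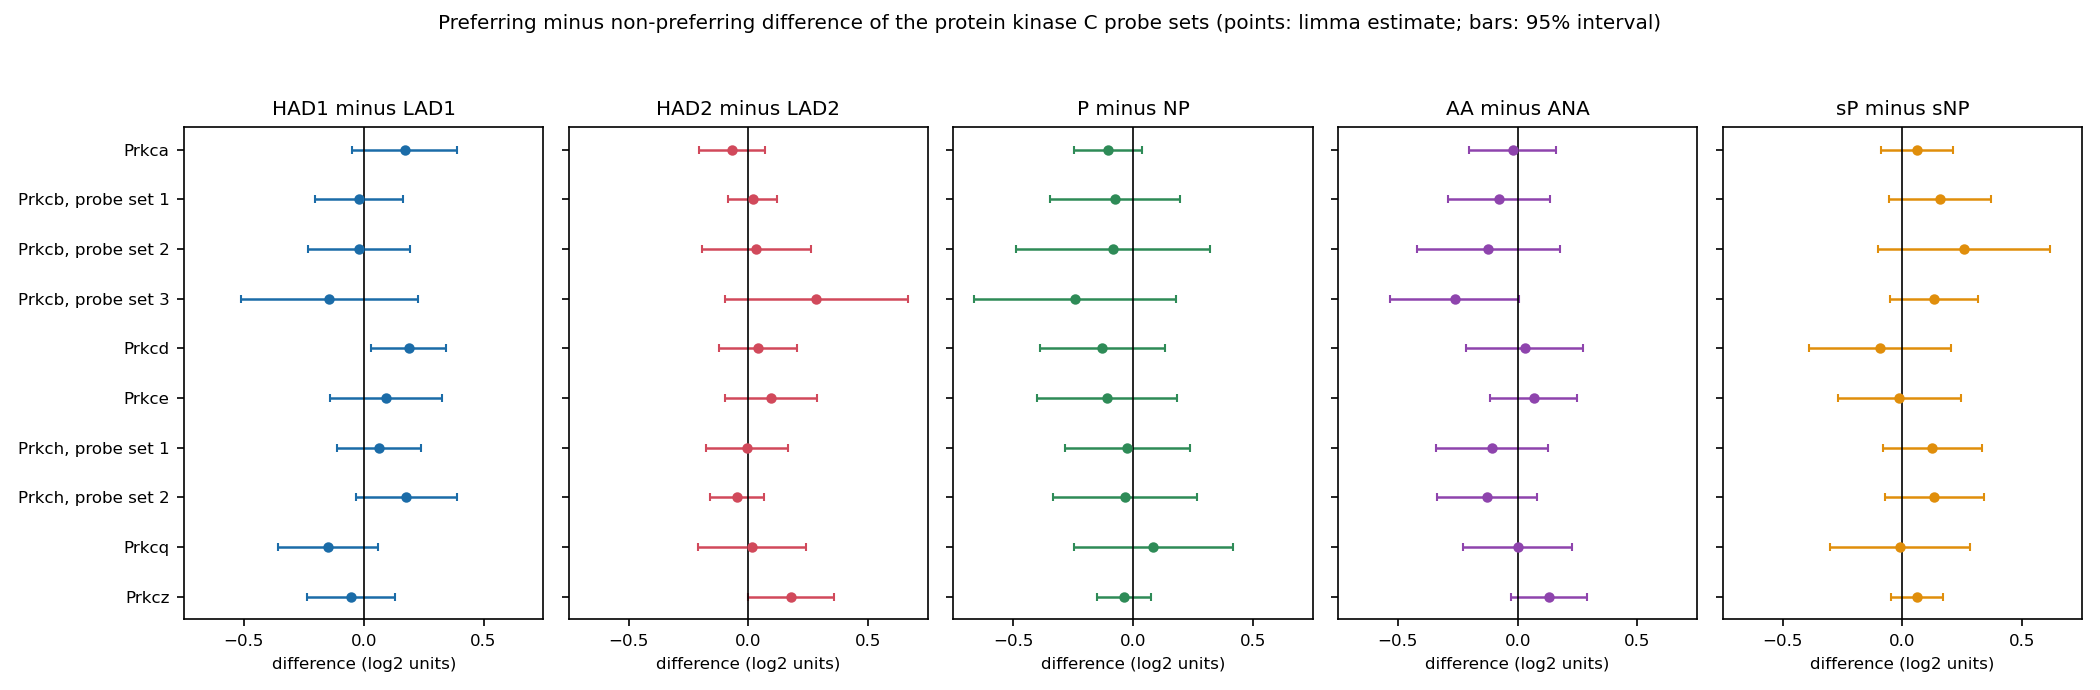
Log2 difference between the preferring and the non-preferring line (horizontal axis, positive where the preferring line is higher) for the 10 probe sets (vertical axis) in the 5 pairs (panels). Points are limma estimates and bars 95% intervals. The interval of Prkcd in HAD1 against LAD1 is the 1 of 50 that leaves out 0.

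Prkcd, the marker of lateral central amygdala neurons, had the smallest unadjusted p of the isoforms within a pair, in HAD1 against LAD1. Its level was lowest at 8.90, had a median of 9.21 and was highest at 9.37 in the 9 HAD1 rats, against 8.61, 9.08 and 9.15 in the 10 LAD1 rats. Of the HAD1 arrays 8 of 9 lay above the LAD1 mean, and 0 of 10 LAD1 arrays lay above the HAD1 mean, although the ranges overlapped. The difference was 0.19 log2 units (SE 0.08, 95% interval 0.030 to 0.34), 1.14-fold, with an unadjusted p of 0.0214 and a limma adjusted p of 0.329. It was 0.16 without the doubted arrays (adjusted p = 0.443), 0.18 with LAD1 36 counted as HAD1 and 0.14 with levels of the central amygdala, striatal and oligodendrocyte lists as covariates. In the same comparison 9 of 14 central amygdala markers had positive differences, with a median of 0.079, and 0 of 13 microglia markers did, with a median of -0.21; their part in the Prkcd difference was not tested.

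In the other pairs Prkcd was closer between lines. The lowest, median and highest levels were 9.44, 9.61 and 9.98 in HAD2 rats, against 9.37, 9.49 and 9.96 in LAD2 rats. They were 8.81, 9.66 and 10.09 in P rats, against 9.41, 9.71 and 10.15 in NP rats, where P 1, a doubted array, is the low value. AA rats had 9.33, 9.91 and 10.22, against 9.38, 9.77 and 10.17 in ANA rats. Here 3 of 10 P arrays lay above the NP mean and 6 of 10 AA arrays above the ANA mean. In sP rats the values were 9.37, 9.57 and 10.13, against 9.19, 9.72 and 10.36 in sNP rats. The differences were 0.039 in HAD2, -0.13 in P, 0.030 in AA and -0.093 in sP, with SEs from 0.078 to 0.14, none past the test (limma adjusted p of 0.824 or more). The P difference turned to 0.016 without the doubted arrays. The mean of the 5 differences was 0.0071 (SE 0.051, adjusted p = 0.994), positive in 3 of 5 pairs. Central amygdala markers had median differences of -0.079 in HAD2, -0.043 in P, -0.053 in AA and 0.015 in sP. Of the 14 markers 5, 6, 5 and 8 were positive in that order. In P the median had the sign of the Prkcd difference, and in HAD2, AA and sP the opposite sign.

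Prkcz, the atypical isoform, had the smallest adjusted p of all 50 comparisons, in HAD2 against LAD2. Its level was lowest at 10.79, had a median of 11.45 and was highest at 11.71 in HAD2 rats, against 10.93, 11.24 and 11.41 in LAD2 rats. Of HAD2 arrays 9 of 10 lay above the LAD2 mean, and 1 of 10 LAD2 arrays lay above the HAD2 mean. The difference was 0.18 (SE 0.087), 1.13-fold, and did not pass (limma adjusted p = 0.3095). A single array, HAD2 8, at 10.79, holds the lowest value of both lines: without it the difference was 0.25 and passed (limma adjusted p = 0.0408), and this was the 1 of 1920 values with 1 array left out that did. In AA rats Prkcz ranged from 11.37 to 11.83 with a median of 11.66, against 11.17 to 11.72 with a median of 11.53 in ANA rats, a difference of 0.13 (SE 0.076, adjusted p = 0.983) that was 0.22 without the doubted arrays (adjusted p = 0.173). The other 3 pairs gave -0.054 in HAD1, -0.037 in P and 0.061 in sP. Prkcz also had the largest mean over the 5 pairs among the isoforms, 0.056 (SE 0.034, adjusted p = 0.770), positive in 3 of 5.

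Prkcb, a conventional isoform abundant in forebrain neurons, was represented by 3 probe sets. The brightest, taken as the first, was lowest at 12.93, had a median of 13.42 and was highest at 13.76 in sP rats, against 12.98, 13.22 and 13.53 in sNP rats. The difference was 0.16 (SE 0.10), with 0.26 (SE 0.17) on the second and 0.13 (SE 0.088) on the third probe set (limma adjusted p over 0.99 for the first). In the same comparison 12 of 12 striatal markers had positive differences, with a median of 0.28 against -0.011 over all genes, and none of them passed. The mean striatal marker level ran from 10.73 to 12.06 in sP rats and from 10.75 to 12.07 in sNP rats. The first Prkcb probe set gave 0.033 with the levels of the central amygdala, striatal and oligodendrocyte lists as covariates, and 0.0088 with the GAPDH ratio as covariate. Whether marker levels or RNA integrity account for the difference was not tested.

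The 3 Prkcb probe sets had the same sign as each other within every pair, but the sign differed between pairs. The largest difference of all 50 was that of the third probe set in HAD2 against LAD2, 0.28 (SE 0.18), where the first 2 probe sets gave 0.018 and 0.033. That probe set ran from 7.27 to 8.95 with a median of 8.56 in HAD2 rats, against 7.59 to 8.55 with a median of 8.12 in LAD2 rats. The striatal markers went the other way in this pair, with 4 of 12 differences positive and a median of -0.083. In AA rats the 3 probe sets gave -0.076, -0.12 and -0.26, and there 1 of 12 striatal markers had a positive difference, with a median of -0.23. The 3 probe sets gave -0.076, -0.083 and -0.24 in P rats, and -0.020, -0.021 and -0.14 in HAD1 rats. Striatal markers were positive for 2 of 12 in P, with a median of -0.16, and for 5 of 12 in HAD1, with a median of -0.031. No Prkcb probe set passed the test. Over the 5 pairs the means of the 3 probe sets were 0.00043, 0.013 and -0.046.

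Prkca, the other conventional isoform, had differences of 0.17 in HAD1, -0.068 in HAD2, -0.11 in P, -0.020 in AA and 0.062 in sP, with SEs from 0.067 to 0.11. In HAD1 rats it ran from 8.03 to 9.08 with a median of 8.47, against 8.01 to 8.52 with a median of 8.34 in LAD1 rats. Prkce, the isoform of alcohol studies in mice, differed by at most 0.11 log2 units, in P rats, where it was -0.11 (SE 0.14). P rats had Prkce levels from 10.97 to 12.27 with a median of 11.45, against 11.11 to 12.13 with a median of 11.65 in NP rats. The other differences of Prkce were 0.091 in HAD1, 0.094 in HAD2, 0.066 in AA and -0.012 in sP. Its mean over pairs was 0.026 (SE 0.053, adjusted p = 0.974).

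Prkch, which is known from epithelia as well as brain, gave on its first probe set 0.064 in HAD1, -0.0054 in HAD2, -0.024 in P, -0.11 in AA and 0.13 in sP. Its second probe set had the same sign in every pair, with 0.18, -0.048, -0.033, -0.13 and 0.13 in that order. Prkcq gave -0.15 in HAD1 (SE 0.10), 0.015 in HAD2, 0.085 in P, -0.00067 in AA and -0.0095 in sP. In HAD1 rats Prkcq ran from 10.61 to 11.29 with a median of 10.87, against 10.70 to 11.51 with a median of 11.11 in LAD1 rats, so most of both ranges were shared.

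Averaged over the 5 pairs with animals as replicates, 0 of 10 protein kinase C probe sets passed, where limma called 0.986% of all probe sets, and 0 of 10 had an unadjusted p under 0.05. With the pair as replicate the count was also 0 of 10, beside 0% of all probe sets, and again 0 of 10 at an unadjusted p under 0.05. The moderated F test of whether the 5 differences vary among pairs called 0 of 10, beside 4.54% of all probe sets. Its smallest adjusted p was 0.499, for the third Prkcb probe set. Without the doubted arrays the count stayed at 0 of 10 in every comparison. The shares of all probe sets were then 2.56% in HAD1, 1.62% in P, 1.87% in AA and 1.75% in sP, 2.97% for the mean and 10.9% for variation among pairs. The arrays dropped were picked by their own profiles, which by construction favours higher shares.

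The levels of several isoforms differed between pairs of lines more than within them. Prkcq averaged 10.94 in HAD1 and 11.09 in LAD1, 10.41 in HAD2 and 10.39 in LAD2, and between 9.05 in AA and 9.40 in sNP in the other 6 lines. The steps below HAD1 and below LAD2 were larger than the SD of the lines on either side, and the other neighbours in this order were not. Prkca stood highest in HAD1 (8.49) and LAD1 (8.32), and lowest in sP (6.89) and sNP (6.83), with steps larger than the SD below LAD1, below HAD2 and below P. Prkce ran the other way, with 11.55 in P and 11.66 in NP, against 10.05 in HAD1 and 9.96 in LAD1. Prkcd was similar in 8 of the lines, from 9.58 in LAD2 to 9.81 in AA, and lower in HAD1 (9.20) and LAD1 (9.01). For the 3 Prkcb probe sets, the first Prkch probe set and Prkcz, no neighbours in the order of lines differed by more than their SD. The 2 Prkch probe sets ordered the lines differently. On the first, LAD2 and HAD2 stood highest (9.14 each) and the span was 0.41. On the second, NP stood highest (7.61), a step larger than the SD lay between sNP (7.13) and LAD2 (6.26), and the span was 1.77. Prkca, Prkcd, Prkce and Prkcq had 1 probe set each, so their order of lines could not be compared in this way. The largest gap within a pair was 0.17 for Prkca, 0.19 for Prkcd, 0.11 for Prkce and 0.15 for Prkcq, against spans over all lines of 1.66, 0.80, 1.70 and 2.04. The pairs also differed in the GAPDH ratio and the spread of values, so descent, dissection and array processing cannot be told apart between pairs, and no test was made.

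Between animals of the same line the isoforms moved with the markers of different cell types. For this comparison the mean of each line was removed from every value. Each isoform, by its brightest probe set, was set against the mean level of 9 marker lists over 96 arrays, with p-values from 100000 permutations within lines, 2-sided, adjusted over the 63 relations. By Pearson's r 38 of the 63 relations passed, as did 38 by Spearman's rho, and 33 of the 38 kept their sign in all 5 pairs. Many genes of the array relate to these lists as strongly: the share of all genes with an r farther out in the same direction had a median of 4.6% over the 38 relations, from 0.190% for Prkcb with striatal markers to 28.9% for Prkca with astrocyte markers. Arrays of a line can differ in dissection, RNA integrity and scaling, which these relations do not separate from cell content. In pieces of tissue fewer cells of a type and less RNA per cell cannot be told apart.

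**Figure D3:**
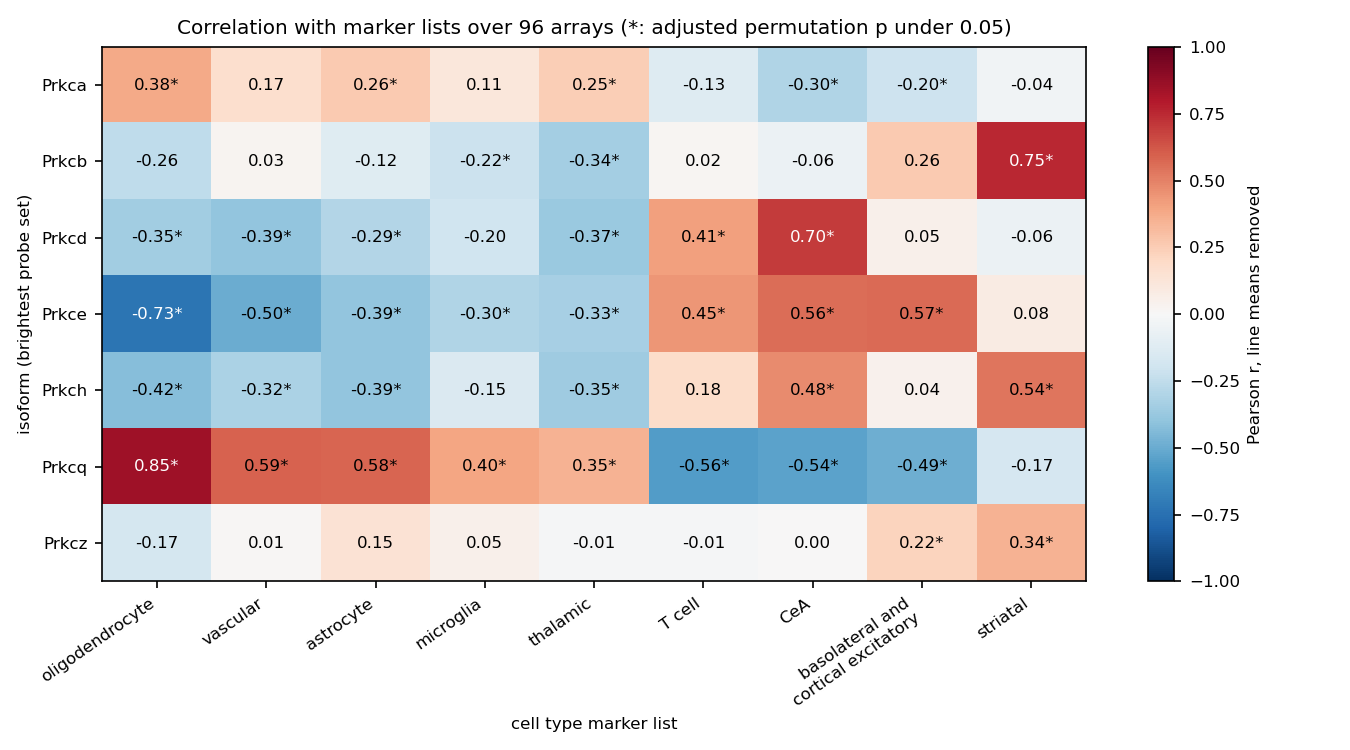
Pearson r of each isoform (rows) with each marker list (columns) over 96 arrays after the mean of each line was removed; the colour scale runs from -1 to 1 and an asterisk marks an adjusted permutation p under 0.05. The highest value is 0.85 for Prkcq with oligodendrocyte markers and the lowest -0.73 for Prkce with the same list.

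Prkcq followed the markers of oligodendrocytes, the cells that make myelin. The correlation was r = 0.85 and rho = 0.88 (adjusted permutation p = 5.25e-05 and 3.94e-05, the smallest these permutations can give), and r = 0.83 without the 2 arrays farthest from the median of the list. It was 0.84 within HAD1 and LAD1, 0.93 within HAD2 and LAD2, 0.78 within P and NP, 0.92 within AA and ANA and 0.97 within sP and sNP. All 12 oligodendrocyte markers had a positive r with Prkcq, from 0.64 for Mbp, a myelin protein, to 0.84 for Sox10, a transcription factor of the lineage, and 0.85 for Aspa, an enzyme of oligodendrocytes. The lowest Prkcq value of P rats, 8.63 in P 9, came with an oligodendrocyte list at -1.24 from the P mean, while the highest, 10.24 in P 5, came with a list at 0.095, so P 5 stands off the common line. Among all genes, 1.49% had a higher r with this list than Prkcq. Prkcq was also positively related to vascular (r = 0.59, rho = 0.65) and astrocyte markers (r = 0.58, rho = 0.64), and negatively to T cell (r = -0.56, rho = -0.47) and central amygdala markers (r = -0.54, rho = -0.59), with adjusted permutation p = 5.25e-05 for each r. Without the 2 farthest arrays these were 0.57, 0.58, -0.53 and -0.49. Of the T cell markers, 7 of 8 lay below the median level of all probe sets, so the negative value rests on low signals. Prkcq also passed with basolateral and cortical (r = -0.49), microglia (r = 0.40) and thalamic markers (r = 0.35). The adjusted permutation p for r was 0.000148, 9e-05 and 0.00555 in that order. Of all genes 2.62%, 4.72% and 11.5% had an r farther out.

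Prkce moved the opposite way. Against oligodendrocyte markers it had r = -0.73 and rho = -0.70 (adjusted permutation p = 5.25e-05 for r), and r = -0.70 without the 2 farthest arrays. The value within pairs was between -0.48 in HAD2 and LAD2 and -0.91 in sP and sNP, and 0 of 12 oligodendrocyte markers were positive. Of all genes, 0.246% had a lower r with this list. With basolateral and cortical excitatory markers it had r = 0.57 and rho = 0.53 (without the 2 farthest arrays 0.48), led by Nptx1, a synaptic pentraxin, at 0.67 and Slc17a7, the vesicular glutamate transporter of cortical neurons, at 0.51. Only 4 of the 9 markers of that list lay above the median level of all probe sets, and Slc17a7 lay below it. With central amygdala markers Prkce had r = 0.56 and rho = 0.57 (without the 2 farthest arrays 0.51), led by Penk, the enkephalin precursor, at 0.59. Both passed, with adjusted permutation p = 5.25e-05 for each r. Prkce also passed with vascular (r = -0.50), T cell (r = 0.45), astrocyte (r = -0.39), thalamic (r = -0.33) and microglia markers (r = -0.30). The adjusted permutation p for r was 5.25e-05, 0.000126, 0.00022, 0.00554 and 0.0027 in that order. Between 2.36% and 8.26% of all genes had an r farther out with these lists. The lists themselves were related, oligodendrocyte against basolateral and cortical markers at r = -0.62 and against central amygdala markers at r = -0.52, so these relations do not separate 1 list from another. Prkce and Prkcq were related at r = -0.69 and rho = -0.68 (adjusted permutation p = 7.5e-05 over 45 pairs of probe sets), negative in all 5 pairs, from -0.33 in HAD2 and LAD2 to -0.88 in sP and sNP.

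Prkcd had its highest r with the neuron markers of the labelled nucleus, and related to 5 other lists as well. With the 14 central amygdala markers, a list that leaves Prkcd out, it had r = 0.70 and rho = 0.71 (adjusted permutation p = 5.25e-05 for r), and r = 0.69 without the 2 farthest arrays. The relation was 0.73 within HAD1 and LAD1, 0.35 within HAD2 and LAD2, 0.75 within P and NP, 0.74 within AA and ANA and 0.80 within sP and sNP. Of all genes, 1.2% had a higher r with this list. Of the 14 markers 13 had a positive r, highest for Nts, which encodes neurotensin (0.63), Cartpt, the precursor of the CART peptide (0.62), Crh, the corticotropin-releasing hormone (0.59), and Zfhx3, a transcription factor (0.59). Sst, which encodes somatostatin and marks another neuron class of the lateral division of the central amygdala, had r = 0.52, and Cdh7, a cadherin, r = -0.34. The low Prkcd value of P 1, 8.81, came with a list at -0.73 from the P mean, and the high one of sNP 1, 10.36, with a list at 0.52 from the sNP mean. With striatal markers Prkcd had r = -0.056 and rho = -0.045 (adjusted permutation p = 0.758 for r), although r was 0.59 within HAD2 and LAD2 and 0.47 within HAD1 and LAD1. It also passed with T cell (r = 0.41, rho = 0.40, 7 of 8 markers positive, most of them low signals), vascular (r = -0.39, rho = -0.46), thalamic (r = -0.37, rho = -0.28), oligodendrocyte (r = -0.35, rho = -0.39) and astrocyte markers (r = -0.29, rho = -0.36). The adjusted permutation p for r was 0.00022, 0.000959, 0.00493, 0.00573 and 0.00378 in that order, and between 4.08% and 14.1% of all genes had an r farther out. The thalamic value was 0.25 within HAD1 and LAD1 and negative within the other 4 pairs.

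**Figure D4:**
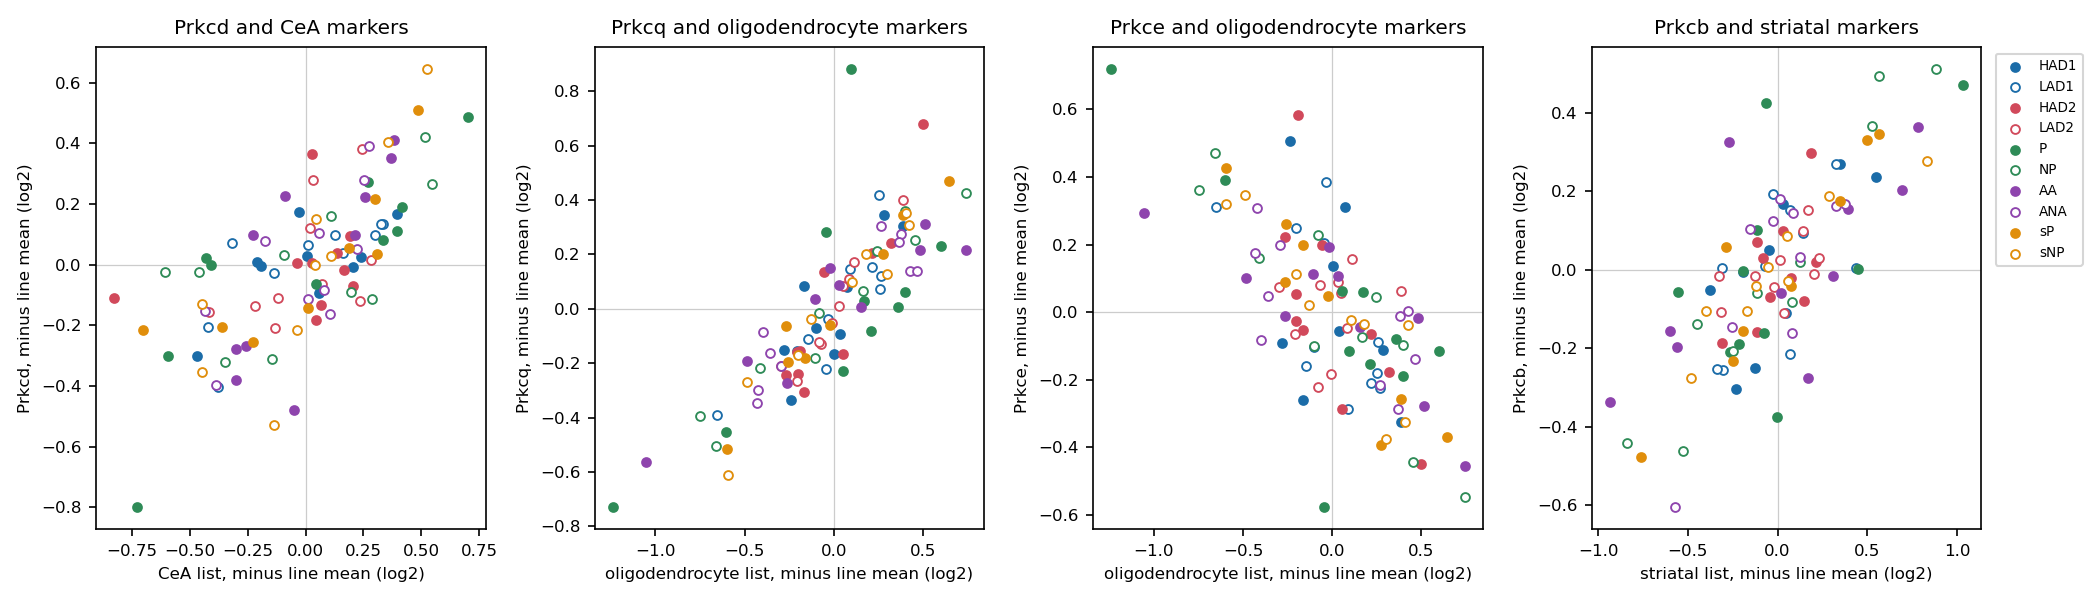
Isoform level against marker list level on each array, both in log2 units after the line mean was removed, for Prkcd with central amygdala, Prkcq and Prkce with oligodendrocyte and Prkcb with striatal markers. Colours are line pairs, filled points preferring and open points non-preferring lines. Within each of the 5 pairs r has the sign of its panel, and over all arrays it is 0.70, 0.85, -0.73 and 0.75 in that order.

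The genes whose levels were most like those of Prkcd within lines were Rps6ka2, a ribosomal S6 kinase (r = 0.72), Ubash3b, a phosphatase that acts on tyrosine kinase signalling (0.72), Crabp1, which binds retinoic acid (0.70), Tmem260 (0.69) and Spata13, a guanine exchange factor for small GTPases (0.69). These are Pearson correlations of line-centred values over 96 arrays, for the 5 highest of all genes. Rps6ka2 kept 0.67 to 0.86 within the 5 pairs and Crabp1 0.58 to 0.88, whereas Spata13 had -0.40 within HAD1 and LAD1.

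Prkcb followed striatal markers, genes of the projection neurons of the striatum, which borders the central amygdala. On its first probe set it had r = 0.75 and rho = 0.69 (adjusted permutation p = 5.25e-05 for r), r = 0.73 without the 2 farthest arrays, and 0.53 to 0.92 within the 5 pairs. All 12 striatal markers were positive, with Pde10a and Pde1b, phosphodiesterases of striatal projection neurons, at 0.77 each, Rgs9 at 0.71, and Drd1 and Drd2, the main dopamine receptors, at 0.58 and 0.45. Of all genes, 0.190% had a higher r with this list. With central amygdala markers Prkcb had r = -0.058 and rho = -0.017 (adjusted permutation p = 0.755 for r), a value that was 0.43 within HAD2 and LAD2 and 0.58 within HAD1 and LAD1 and negative within the other 3 pairs. Prkcb also passed with thalamic (r = -0.34, adjusted permutation p = 0.00573) and microglia markers (r = -0.22, adjusted permutation p = 0.0247). A lower r with these lists was seen in 8.002% and 9.906% of all genes. Its thalamic value was 0.41 within HAD1 and LAD1 and negative within the other 4 pairs, and its microglia value was negative within all 5. Prkch was related to both striatal (r = 0.54, rho = 0.57, without the 2 farthest arrays 0.49) and central amygdala markers (r = 0.48, rho = 0.43, without them 0.48). Its adjusted permutation p was 5.25e-05 and 9e-05 for r, and 1.49% and 6.56% of all genes had a higher r with these lists. The highest single values of Prkch were 0.71 for Adora2a, an adenosine receptor of striatal neurons, and 0.68 for Penk. Prkch also passed with oligodendrocyte (r = -0.42), astrocyte (r = -0.39), thalamic (r = -0.35) and vascular markers (r = -0.32). The adjusted permutation p for r was 0.00043, 0.000148, 0.00157 and 0.00378 in that order. Between 2.38% and 13.5% of all genes had a lower r with these lists.

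The strongest correlations of Prkca and Prkcz, r = 0.38 and 0.34, were weaker than those of the other isoforms. Prkca had r = 0.38 and rho = 0.42 with oligodendrocyte markers (adjusted permutation p = 0.00021 for r), positive in all 5 pairs from 0.27 to 0.54, while 16.5% of all genes had a higher r with that list. It had r = -0.30 and rho = -0.33 with central amygdala markers (adjusted permutation p = 0.00554 for r), where 16.4% of all genes had a lower r. Prkca also passed with astrocyte (r = 0.26), thalamic (r = 0.25) and basolateral and cortical markers (r = -0.20). The adjusted permutation p for r was 0.0435, 0.0267 and 0.0479 in that order. Of all genes 28.9%, 19.7% and 19.1% had an r farther out. Prkcz passed with striatal markers (r = 0.34, rho = 0.45, adjusted permutation p = 0.00036 for r), where the value was 0.93 within sP and sNP and 0.081 within AA and ANA, and 4.48% of all genes had a higher r. It also passed with basolateral and cortical markers by r alone (r = 0.22, adjusted permutation p = 0.0308, and rho = 0.13, adjusted permutation p = 0.266), with 16.2% of all genes higher. The other 7 lists gave Prkcz values of r between -0.17 and 0.15, none past the test.

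Probe sets of the same gene were compared because a gene-level statement rests on their agreement. With line means removed, the 2 Prkch probe sets were related at r = 0.74 and rho = 0.67 (adjusted permutation p = 7.5e-05 for r), positive in all 5 pairs. For Prkcb the first and second probe sets had r = 0.69 and rho = 0.63, and the first and the third r = 0.61 and rho = 0.61 (adjusted permutation p = 7.5e-05 for each r). Within HAD2 and LAD2, and within HAD1 and LAD1, the first and second gave only -0.0075 and 0.085. The second and the third had r = 0.20 (adjusted permutation p = 0.0879) and rho = 0.23 (adjusted permutation p = 0.0453). This r was 0.41 to 0.75 within each of the 3 other pairs, but -0.57 within HAD1 and LAD1 and -0.59 within HAD2 and LAD2. With the GAPDH ratio removed it was 0.46 over all arrays. The ratio itself was related to the second probe set at r = -0.35 and rho = -0.35 (adjusted permutation p = 0.0003 for r over the 10 probe sets) and to the third at r = 0.49 and rho = 0.37 (adjusted permutation p = 0.0004 for r). Without the 2 farthest arrays these were -0.29 and 0.45. The second probe set was negative within all 5 pairs, from -0.37 in P and NP to -0.64 in HAD2 and LAD2. The third changed sign over pairs, with 0.87 within HAD2 and LAD2, 0.58 within HAD1 and LAD1 and 0.14 within P and NP, but -0.10 within AA and ANA and -0.49 within sP and sNP. The third is also the Prkcb probe set with the largest difference of HAD2 against LAD2. The part of RNA integrity in that difference was not tested. The ratio was also related by r to Prkcq (0.26, adjusted permutation p = 0.0148), the second Prkch probe set (-0.24, adjusted permutation p = 0.0244) and Prkcd (-0.17, adjusted permutation p = 0.0261), of which Prkcq alone passed by rho as well (adjusted permutation p = 0.0404). Prkcq was positive within all 5 pairs, from 0.034 in sP and sNP to 0.58 in HAD1 and LAD1. Prkcd changed sign, with -0.59 within HAD2 and LAD2 but 0.12 within P and NP and 0.14 within sP and sNP. The second Prkch probe set was -0.57 within HAD1 and LAD1 but 0.096 within AA and ANA.

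**Figure D5:**
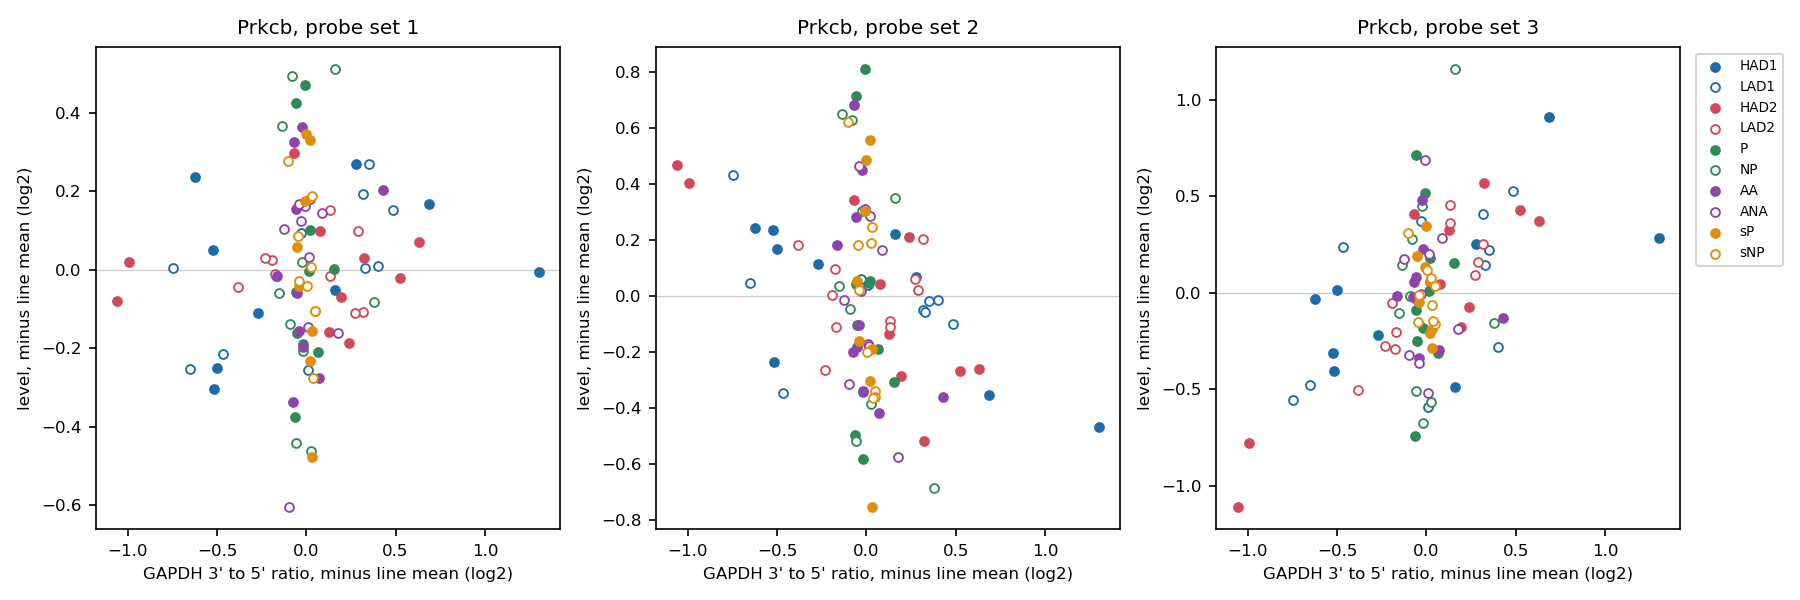
Level of the 3 Prkcb probe sets (vertical axes, log2 units) against the log2 ratio of 3' to 5' GAPDH probe sets (horizontal axes), both minus the line mean, with 1 point for each of 96 arrays. Colours are line pairs, filled points preferring lines. The second probe set falls with the ratio (r = -0.35), the third rises over all arrays (r = 0.49) but has a negative r within AA and ANA and within sP and sNP, and the widest spread along the ratio is in the HAD1 (SD 0.66) and HAD2 (SD 0.58) arrays.

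The partners of protein kinase C were counted in 5 lists. In each of the 5 pairs, for the mean over pairs and with the pair as replicate, 0 of 7 other protein kinase C and related kinases, 0 of 17 genes of Gq and phospholipase C, 0 of 20 diacylglycerol kinases and diacylglycerol-binding proteins, 0 of 17 substrates and 0 of 18 scaffolds and phosphatases passed the limma test. Over all 14217 genes the shares were 0.682% in HAD1, 3.75% in HAD2, 0.816% for the mean and 0% in the other comparisons. The median difference of the lists lay between -0.039 and 0.055 log2 units over the 5 pairs, beside medians of all genes between -0.014 and 0.0057. The 7 isoforms themselves had medians of 0.064 in HAD1, 0.018 in HAD2, -0.076 in P, -0.00067 in AA and 0.061 in sP.

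In the test of variation among pairs 2 of 79 partners passed, where 3.97% of all genes did. Akap5, which anchors protein kinase C and protein kinase A at synapses, differed by -0.84 in HAD1 (SE 0.29) and 0.84 in HAD2 (SE 0.24), with -0.30 in P, -0.35 in AA and -0.077 in sP (limma adjusted p = 0.0204 for the variation). Dgkz, a kinase that removes diacylglycerol, differed by -0.34 in HAD1 (SE 0.12) and 0.18 in HAD2 (SE 0.075), with 0.084 in P, 0.12 in AA and 0.091 in sP (limma adjusted p = 0.0336). Neither passed within a single pair with all arrays, the closest being Akap5 in HAD2 (adjusted p = 0.0501). Without the doubted arrays 2 of 79 partners passed in HAD1 (2.53%), 1 of 79 in AA (1.27%) and 5 of 79 for variation among pairs (6.33%). Of all probe sets 2.56%, 1.87% and 10.9% did in that order. These shares count every probe set and the partners 1 per gene, so they are not strictly alike, and no excess is read from the counts. Rasgrp3, an exchange factor that binds diacylglycerol, was 0.68 higher in HAD1 (limma adjusted p = 0.000374). Akap5 was 1.08 lower in HAD1 (limma adjusted p = 0.0266). Chn2, a diacylglycerol-binding GTPase activator, was 0.40 lower in AA (limma adjusted p = 0.0378).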

How the data were processed

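The deposited values are log2 levels per probe set of an Affymetrix rat array, made by the authors with RMA per the submitters' processing notes. The labelling protocol, read for 1 array, gives biotinylated cRNA prepared in 2 cycles from 25 ng of total RNA. No source states if all pairs were normalized together. Scanner files were not used here, so background was not checked by probe, and precision is limited by how many arrays a line has. The 57 control probe sets were left out, and 31042 were tested. Of these, 20826 had 1 gene symbol, 436 several and 9780 were not listed in the platform annotation.

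Lines of a pair were compared with limma 3.58.1 in R 4.3.3 (lmFit and eBayes with an intensity trend), with Benjamini-Hochberg adjustment over all probe sets. A fit of all 10 lines gave the mean of the 5 differences and the F test of their variation, and the 5 pair differences were also tested with the pair as replicate. Relations used line-centred values. The fits were tested on simulated data. The genes named were the 7 isoforms and their lists, the marker and pathway genes past a test, the extremes of each relation and the 5 genes most like Prkcd; the isoforms and lists were chosen with earlier results of these data known. Alternatives were other scalings, filters, weights and covariates, each array left out, LAD1 36 moved or left out, the doubted arrays left out and a replicate block. Numbers shared by P and NP or by sP and sNP animals were not taken as pairs, since same-number correlations ran from -0.107 to 0.505 and from -0.176 to 0.768. Promoters came from RefSeq (GRCr8).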

Additional observations from a re-analysis of the deposited data

Results flagged for a closer look

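In 7 of the 100 groups of 1 probe set in 1 line, a single array lay farther from the others than Dixon's 95% critical value allows; chance gives about 1 in 20. The first Prkcb probe set was 12.51 in ANA 6, against an ANA median of 13.23, and the second was 9.9 in LAD1 38, against a LAD1 median of 9.45. Prkcd was 9.98 in HAD2 10, above the HAD2 median of 9.61. The second Prkch probe set was 6.58 in NP 8, below the NP median of 7.63. Prkcz had 3 such arrays, with 10.79 in HAD2 8 (HAD2 median 11.45), 10.92 in LAD1 39 (LAD1 median 11.43) and 11.52 in sNP 6 (sNP median 11.29).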

How the results depend on the processing

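Over 630 single differences under settings other than leaving out 1 array, 37 changed sign, 0 passed the test and the smallest limma adjusted p was 0.1459 (Prkcd in HAD1 against LAD1, array weights); with 1 array left out, 124 of 1920 changed sign and 1 passed. The count of protein kinase C probe sets called in HAD2 against LAD2 ranged from 0 to 1 with an array left out, the 1 being Prkcz without HAD2 8 (0.25, limma adjusted p = 0.0408). The replicate block, for which P and NP and sP and sNP share numbers that were not taken as pairs, called 0 probe sets, with 0.17 for the first Prkcb probe set in sP against sNP (0.16 without the block). Of the 63 marker relations, 38 passed over all arrays, and within a pair, with fewer arrays, 16 passed in HAD2 and LAD2, 11 in HAD1 and LAD1, 20 in P and NP, 7 in AA and ANA and 22 in sP and sNP. Among the 190 within-pair values of the 38 relations that passed, 6 turned sign, all with thalamic markers: within HAD1 and LAD1 r was -0.4234 for Prkca, 0.4061 for Prkcb, 0.2473 for Prkcd, 0.3123 for Prkce and 0.1955 for Prkch, and within HAD2 and LAD2 it was 0.1261 for Prkce; the cause was not tested. The marker list covariates were chosen after seeing the data, and with them 0 probe sets were called.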
